A study of Mus musculus with 15 samples.

Results

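The genes described here are the MHC class II genes Cd74, H2-Aa, H2-Ab1, H2-Eb1, H2-DMa, H2-DMb1 and Ciita. They are the 7 genes whose symbol matched a row of the deposited expression tables, out of 21878 rows, and all 7 were found. RNA-seq was carried out on prefrontal forebrain cortex in 15 mouse libraries. WT-B (n = 4) were wildtype C57BL6/J mice on water, WT-N (n = 4) were wildtype mice on nicotine, DKO-B (n = 4) were conditional Presenilin 1/2 double knockout mice on water and DKO-N (n = 3) were double knockout mice on nicotine. All mice were 8 months old at the start, and nicotine was given in drinking water at 100 µg/ml for 3 months. The sources used here give neither the driver of the conditional deletion nor the sex of the mice. Libraries carry a number within their group, and whether each is a different mouse is not stated, so p-values cover only the spread between libraries, which may be technical.

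MHC class II molecules are pairs of an alpha and a beta chain that carry peptides from the endosome to the cell surface, where CD4+ T cells read them. Cd74 encodes the invariant chain, which fills the groove of a new class II pair and guides it to the endosome. There proteases trim it away, and the H2-DM pair exchanges the last fragment for a peptide. In the brain, class II expression is best known from border macrophages, dendritic cells and activated microglia. Ciita encodes the class II transactivator, which does not bind DNA itself but joins factors already bound to the promoters of these genes.

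The class II genes lie in the H2 region of chromosome 17 (GRCm38.p6, RefSeq coordinates), except for Cd74 and Ciita. H2-Aa, the alpha chain of the I-A molecule, spans 34282744 to 34287823, and H2-Ab1, its beta chain, 34263227 to 34269418. H2-Eb1, the beta chain of I-E, spans 34305867 to 34316674. H2-DMa and H2-DMb1, the chains of H2-DM, span 34119693 to 34139101 and 34153191 to 34160229. Ciita spans 10480014 to 10531064 on chromosome 16. C57BL/6 mice make no I-E alpha chain: the table's row H2-Ea-ps, a pseudogene, was at 0 in all 15 libraries.

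Promoters of class II genes are known for an X box and a Y box at a set spacing, the sites where the factors that recruit Ciita assemble. The sequences below are shown because they hold the letters searched for, GNAAC (the core of the X box) and GATTGG (the Y box), printed in capitals. They are from the RefSeq promoter table of build GRCm38.p6, 5′ to 3′ on the strand of the gene, and end before its transcription start.
H2-Aa: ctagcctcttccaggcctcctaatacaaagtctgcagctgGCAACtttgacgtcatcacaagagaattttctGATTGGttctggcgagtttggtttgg
H2-Eb1: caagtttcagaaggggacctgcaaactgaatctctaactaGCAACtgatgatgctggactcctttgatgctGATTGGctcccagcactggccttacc
H2-Ob: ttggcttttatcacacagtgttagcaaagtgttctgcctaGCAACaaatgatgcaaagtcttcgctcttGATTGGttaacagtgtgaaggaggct

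The H2-Aa stretch is chr17:34287847-34287944 on the minus strand, with motif starts 81 and 49 bases before the gene's start. The H2-Eb1 stretch is chr17:34305736-34305832 on the plus strand, with motif starts 91 and 60 bases before it. The stretch of H2-Ob, a chain of the H2-DM inhibitor H2-O, is chr17:34238778-34238872 on the plus strand, with motif starts 87 and 58 bases before it. The 2 motifs began 32 bases apart in H2-Aa, 31 in H2-Eb1 and 29 in H2-Ob. Windows of 250 bases before to 50 after a start were searched on both strands for GNAAC followed by GATTGG on the same strand, 25 to 40 bases on. These 2 motifs cannot overlap at that spacing. The arrangement was in 303 of 32851 windows of all genes (0.922%), while GATTGG alone was in 16.1% and GNAAC alone in 84.8%. Of the members, H2-Aa, H2-Eb1, H2-DMa and H2-DMb1 had a window. H2-DMb1 also held the arrangement, 32 bases apart, and neither of the 2 H2-DMa windows did. The H2-DMa windows were 34122582 to 34122881 and 34125268 to 34125567. In the GENCODE M21 annotation the first holds the start of H2-DMa-201, at 34122832. The protein-coding transcripts H2-DMa-205 and H2-DMa-207 start at 34135628 and 34135654, outside both windows, so their promoters were not searched. In the same annotation both H2-DMb1 motifs lie inside the transcript H2-DMb1-201, which starts at 34153072, and the H2-Oa stretch also overlaps an exon. With the relatives H2-Oa, H2-Ob, H2-DMb2 and H2-Eb2, 6 of 9 windows held it, all but those of H2-DMa and H2-DMb2. The letters were chosen with the promoters and the expression results known, so the count is a description, and a match is not a shown binding site.

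The depth was 16334914 to 19469257 reads in genes per library. Levels are in FPKM, which scale reads by gene length and library size. A comparison between genes depends on the gene model that sets each length. Differences were tested with limma on log2(FPKM + 1), a scale that makes changes of low genes look smaller, over 12728 genes that reached 1 FPKM in 3 or more libraries. A gene was called at a Benjamini-Hochberg adjusted p under 0.05. Of the 7 members, 6 passed the filter, which they would also have passed on the wildtype libraries alone, and Ciita did not. Psen2, a targeted gene, was at 5.44 to 7.14 FPKM in the 8 WT libraries and at 1.29 to 1.76 in the 7 DKO libraries, with no overlap. All 7 markers of cortical excitatory neurons were above 0 in each group. Their sums were 1392 to 1436 FPKM in WT-B, 1400.5 to 1490 in WT-N, 1127 to 1255 in DKO-B and 1194 to 1281 in DKO-N. Between genotypes, 4 of the 7 were called lower in DKO and 0 higher on water. Under nicotine 4 were called lower and 1 higher. Of all tested genes, 38% on water and 35.7% under nicotine were called in either direction. The part of this neuronal difference in the class II values was not tested. Y-linked genes summed to 24.3 to 33.0 FPKM in every WT-B and DKO-B library, to at most 0.144 in the 4 WT-N libraries, to 0.233 in DKO-N replicate 2 and to 35.9 and 36.6 in DKO-N replicates 1 and 3. Nicotine and the absence of Y-linked RNA therefore cannot be told apart in wildtype mice.

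The comparison of genotypes on water asks how class II RNA differs in the knockout cortex without nicotine. All 6 tested members were called higher in DKO-B than in WT-B, where 25.5% of all tested genes were called higher (38% in either direction). Their median log2 change was 1.21, and that of all tested genes was 0.05. The range was wide: Cd74 and the classical chains rose about 2.53-fold to 5.08-fold by their mean FPKM, H2-DMb1 rose 3.05-fold, and H2-DMa rose 1.17-fold. In 5 of the 6 every DKO-B library lay above every WT-B library, as did 24% of all tested genes, and H2-DMa overlapped. In bulk tissue, more cells that express a gene and more RNA per cell cannot be told apart.

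Cd74, the invariant chain (chromosome 18, 60803849 to 60812652), was at 4.27, 5.74, 3.34 and 3.29 FPKM in WT-B replicates 1 to 4 and at 22.6, 21.1, 22.2 and 18.6 in DKO-B. Under nicotine it was at 4.08, 4.03, 4.74 and 2.49 FPKM in WT-N and at 12.6, 28.1 and 23.9 in DKO-N replicates 1 to 3. The genotypes did not overlap under either drink, and the lowest knockout library, DKO-N replicate 1, was still well above the highest wildtype one. The means were 4.16 ± 1.15 (SD, n = 4) in WT-B, 3.83 ± 0.951 (SD, n = 4) in WT-N, 21.1 ± 1.79 (SD, n = 4) in DKO-B and 21.5 ± 8.01 (SD, n = 3) in DKO-N. The log2 change between genotypes was 2.12 on water (SE 0.20, limma adjusted p = 4.16e-07). It was 2.17 under nicotine (SE 0.22, limma adjusted p = 9.14e-07). Cd74 stood highest of the 7 members in every group mean.

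**Figure D1:**
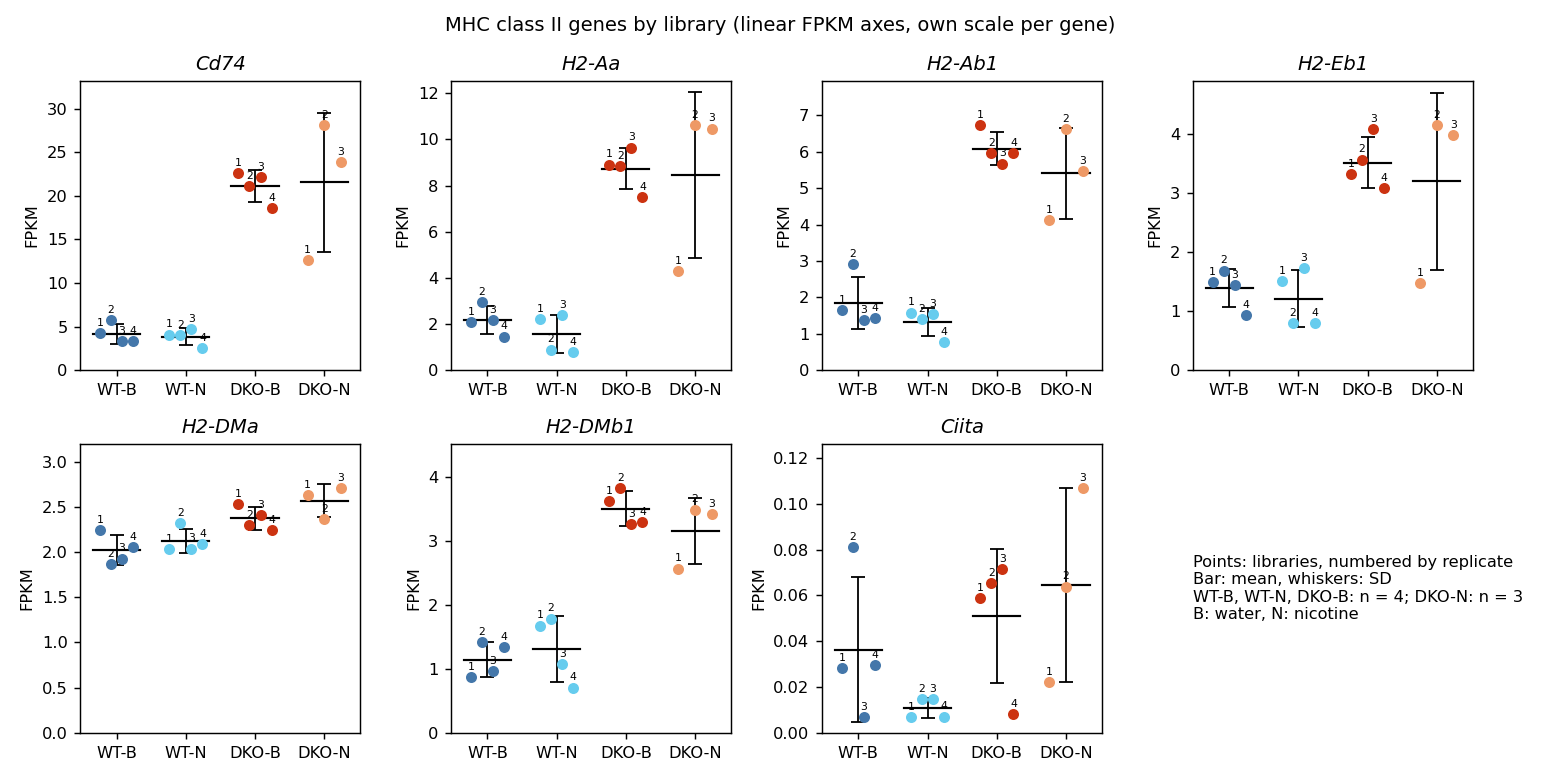
FPKM of the 7 MHC class II genes in each of the 15 libraries (points numbered by replicate), with the mean as a bar and the SD as whiskers, on a linear axis of its own for each gene. Cd74 is at 3.29 to 5.74 FPKM in WT-B and 18.6 to 22.6 in DKO-B, H2-DMa changes little between groups, and Ciita stays under 0.11.

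H2-Aa, the I-A alpha chain, was at 2.08, 2.95, 2.16 and 1.45 FPKM in WT-B and at 8.91, 8.84, 9.65 and 7.50 in DKO-B. Under nicotine it was at 2.21, 0.888, 2.38 and 0.80 in WT-N and at 4.29, 10.6 and 10.5 in DKO-N. DKO-N replicate 1 was again the lowest knockout library, with no overlap between genotypes. The log2 change was 1.64 on water (SE 0.24, limma adjusted p = 4.88e-05) and 1.85 under nicotine (SE 0.26, limma adjusted p = 3.79e-05), which are 4.04-fold and 5.39-fold in mean FPKM. H2-Ab1, the I-A beta chain, was at 1.64, 2.92, 1.38 and 1.44 FPKM in WT-B and at 6.73, 5.95, 5.67 and 5.95 in DKO-B. It was at 1.58, 1.40, 1.53 and 0.761 in WT-N and at 4.12, 6.61 and 5.48 in DKO-N. The beta chain followed the same order of groups as the alpha chain, and its 4 DKO-B values lay close together. Its log2 change was 1.34 on water (SE 0.15, limma adjusted p = 3.75e-06) and 1.46 under nicotine (SE 0.17, limma adjusted p = 4.33e-06).

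H2-Eb1, the I-E beta chain, which has no alpha partner in this strain, was lower than the I-A chains in all group means. It was at 1.49, 1.69, 1.45 and 0.93 FPKM in WT-B and at 3.32, 3.57, 4.09 and 3.08 in DKO-B. It was at 1.51, 0.803, 1.73 and 0.80 in WT-N and at 1.47, 4.15 and 3.98 in DKO-N. Under nicotine the genotypes overlapped, since DKO-N replicate 1 lay below WT-N replicates 1 and 3. The log2 change was 0.92 on water (SE 0.20, limma adjusted p = 0.00137) and 0.88 under nicotine (SE 0.21, limma adjusted p = 0.00396). Without DKO-N replicate 1 the change under nicotine was 1.22 (limma adjusted p = 3.53e-05). Within a library, the level of H2-Aa relative to H2-Eb1 was 1.55 ± 0.147 (SD, n = 4) in WT-B, 1.24 ± 0.221 (SD, n = 4) in WT-N, 2.49 ± 0.139 (SD, n = 4) in DKO-B and 2.70 ± 0.185 (SD, n = 3) in DKO-N. The lowest knockout ratio, 2.36, was above the highest wildtype ratio, 1.74, and this holds for DKO-N replicate 1 as well. Cd74 relative to H2-Aa did not separate the genotypes, at 1.54 to 4.53 over the 8 wildtype libraries and 2.28 to 2.94 over the 7 knockout libraries.

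The chains of H2-DM, the peptide exchanger, differed from each other. H2-DMb1, the beta chain, was at 0.866, 1.42, 0.96 and 1.34 FPKM in WT-B and at 3.62, 3.83, 3.26 and 3.29 in DKO-B. It was at 1.68, 1.78, 1.08 and 0.707 in WT-N and at 2.57, 3.49 and 3.42 in DKO-N. Every knockout library lay above every wildtype one. The log2 change was 1.07 on water (SE 0.13, limma adjusted p = 8.98e-06) and 0.87 under nicotine (SE 0.14, limma adjusted p = 0.000208). H2-DMb1 has a near copy, H2-DMb2, and reads could be shared between them.

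H2-DMa, the alpha chain, was at 2.24, 1.87, 1.93 and 2.06 FPKM in WT-B and at 2.53, 2.30, 2.41 and 2.24 in DKO-B. It was at 2.03, 2.32, 2.04 and 2.09 in WT-N and at 2.63, 2.37 and 2.71 in DKO-N. On water the lowest DKO-B value fell just under the highest WT-B value, and under nicotine the genotypes did not overlap. Its log2 change was 0.16 on water (SE 0.06, limma adjusted p = 0.0484) and 0.19 under nicotine (SE 0.06, limma adjusted p = 0.0281). Neither call held when FPKM values were rescaled by median-of-ratios factors (limma adjusted p = 0.131 and 0.0922). The level of H2-DMb1 relative to H2-DMa was 0.574 ± 0.165 (SD, n = 4) in WT-B, 0.616 ± 0.225 (SD, n = 4) in WT-N, 1.48 ± 0.133 (SD, n = 4) in DKO-B and 1.24 ± 0.249 (SD, n = 3) in DKO-N, with no overlap between genotypes. The FPKM values imply a gene model of 6798 bases for H2-DMa, against 1284 for H2-DMb1, and the H2-DMa locus shares 3122 bases with Brd2, a ubiquitous chromatin reader. Brd2 stood at 29.7 to 35.2 FPKM over all libraries and had log2 changes of 0.12 and 0.17 in the genotype comparisons. How far reads of Brd2 enter the H2-DMa value was not tested.

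**Figure D2:**
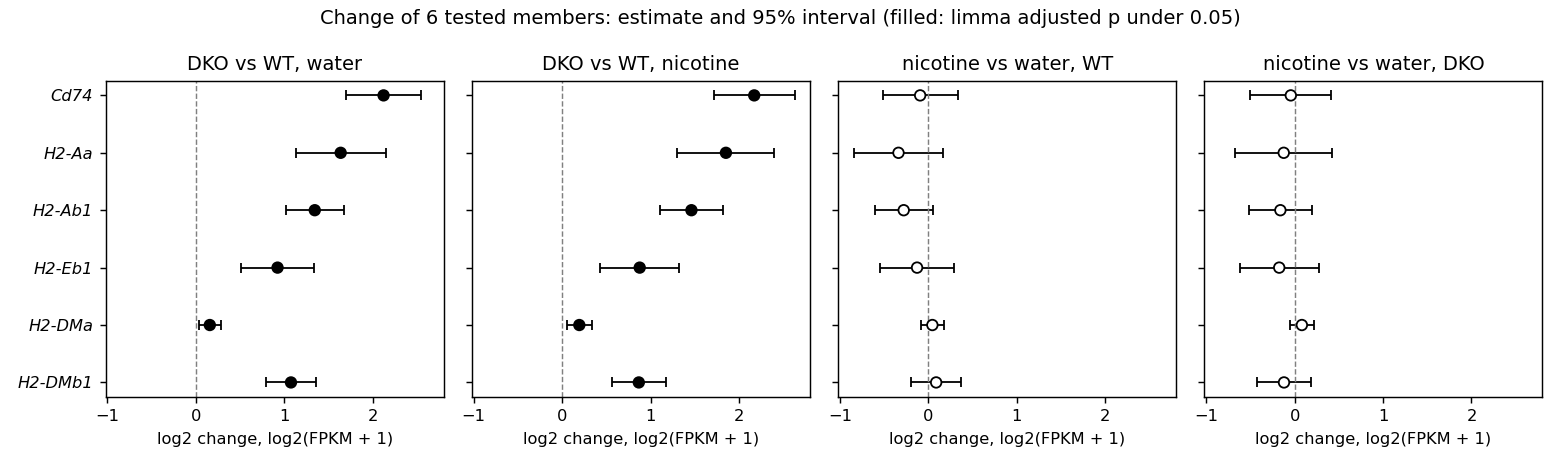
Log2 change on the log2(FPKM + 1) scale of the 6 tested members in 4 comparisons, with the limma estimate as a point and its 95% interval as whiskers, filled where called. All 6 are called in both genotype comparisons, from 0.16 to 2.17, and none in the nicotine comparisons.

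Ciita, the transactivator, was close to the limit of these libraries, with 1 to 15 reads in each. It was at 0.0282, 0.0809, 0.00684 and 0.0295 FPKM in WT-B and at 0.059, 0.0654, 0.0715 and 0.00815 in DKO-B. It was at 0.00699, 0.0149, 0.0147 and 0.00711 in WT-N and at 0.0223, 0.0639 and 0.107 in DKO-N. On water the groups overlapped fully. Under nicotine they did not overlap, although the WT-N libraries held only 1 or 2 reads each. The group means differed by 0.0146 FPKM on water (exact two-sided permutation test, unadjusted p = 0.514) and by 0.0534 under nicotine (exact two-sided permutation test, unadjusted p = 0.0286). The second is the smallest p that 4 against 3 libraries allow, and with all 18118 genes in the limma fit its adjusted p was 0.0842. A level of 3 reads was worth 0.0205 to 0.0245 FPKM, so 5 of the 8 wildtype values were under that level. Ciita shares 858 bases with the Dexi locus, whose log2 changes were 0.19 and 0.16.

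Under nicotine, all 6 tested members were again called higher in DKO-N than in WT-N, beside 24.6% of all tested genes (35.7% in either direction). Their median log2 change was 1.17, against 0.06 for all tested genes. No overlap between genotypes was found for 5 of the 6, all but H2-Eb1, beside 25.8% of all tested genes. DKO-N replicate 1 was the lowest of its group for 5 of the 6 members, all but H2-DMa, and for 29.9% of all tested genes. It was also lowest for 7 of 7 meningeal fibroblast markers, 7 of 10 microglia markers and 4 of 6 tested border macrophage markers. The part of these cells in its lower class II values was not tested. Without this library the log2 changes under nicotine were 2.50 for Cd74, 2.23 for H2-Aa, 1.61 for H2-Ab1 and 0.97 for H2-DMb1, with limma adjusted p from 5.85e-08 to 0.000235. The change of H2-DMa was then 0.18 and was no longer called (limma adjusted p = 0.0805). The groups also differed in Y-linked RNA, which 2 of 3 DKO-N libraries and none of the 4 WT-N libraries held above 0.233 FPKM, and all 4 Y-linked genes were called higher. Cd74 was at 28.1 FPKM in DKO-N replicate 2, which held almost no Y-linked RNA, and at 12.6 and 23.9 in replicates 1 and 3. The part of the Y-linked difference in the class II values was not tested.

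The comparisons of nicotine with water ask whether the drug moved class II RNA within a genotype. None of the 6 tested members was called by limma in wildtype mice, in knockout mice or in the test of whether the drug's change differed between genotypes. The shares of all tested genes called were 0.173%, 0.157% and 0.0157%. None of the 6 had an unadjusted p under 0.05 in any of the 3 comparisons either. Cd74 changed by -0.09 in wildtype mice on the log2 scale (95% interval -0.52 to 0.33) and by -0.04 in knockout mice (95% interval -0.50 to 0.41). H2-Aa gave the widest intervals, -0.34 in wildtype (95% interval -0.85 to 0.17) and -0.12 in knockout mice (95% interval -0.67 to 0.42). H2-DMa gave the narrowest, 0.04 (95% interval -0.08 to 0.17) and 0.08 (95% interval -0.06 to 0.22). These bounds leave room for changes of the classical chains in either direction. The knockout values depended on single libraries: for Cd74 the change was 0.28 without DKO-N replicate 1 and -0.26 without DKO-N replicate 2. For Ciita the groups overlapped in both genotypes (exact two-sided permutation test, unadjusted p = 0.143 and 0.714). The 4 comparisons of groups share libraries in pairs, so their values are not independent.

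The relatives of the members were low and none passed the filter, so their values come from the fit to all 18118 genes. A level of 3 reads was worth 0.0446 to 0.0531 FPKM for H2-Ob, 0.147 to 0.175 for H2-Oa and 0.196 to 0.234 for H2-DMb2. The lowest value of H2-Oa was 0.106 FPKM, in WT-N, and that of H2-DMb2 was 0.282, in WT-B, so their changes rest on few reads. H2-Ob, the beta chain of H2-O, which restrains H2-DM, was at 0.352, 0.128, 0.149 and 0.0962 FPKM in WT-B and at 0.544, 0.521, 0.699 and 0.761 in DKO-B. It was at 0.167, 0.145, 0.16 and 0.185 in WT-N and at 0.582, 0.817 and 0.759 in DKO-N, with no overlap between genotypes. Its log2 changes were 0.47 (limma adjusted p = 0.000105) and 0.56 (limma adjusted p = 5.38e-05). H2-Oa, the alpha chain of H2-O, had a log2 change of 0.34 on water (limma adjusted p = 0.0584) and rose by 0.41 under nicotine (limma adjusted p = 0.0348). H2-DMb2 rose by 0.42 on water (limma adjusted p = 0.00267). Its change under nicotine was 0.08 (limma adjusted p = 0.614), and its WT-N mean of 0.604 ± 0.114 FPKM (SD, n = 4) lay above its WT-B mean of 0.374 ± 0.0749 (SD, n = 4). H2-Eb2 was at or near 0 in every library, at most 0.0151 FPKM.

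Genes listed under class II peptide generation and Cd74 processing were mostly higher in the knockout. The list also holds the protease inhibitors Cst3 and Cst7 and the ubiquitin ligase Marchf1. Of 15 listed genes, all tested, 14 rose and 1 was not called on water (median log2 change 0.94). Under nicotine 12 rose and 3 were not called (median 0.83). Beside these, 25.5% of all tested genes were called higher on water and 24.6% under nicotine. After median-of-ratios rescaling 12 and 11 rose. Ctss, the protease that trims the invariant chain in antigen-presenting cells, was 4.54-fold and 4.35-fold higher in the knockout means, close in size to Cd74. Cst7, an inhibitor of lysosomal proteases, was near 0.3 FPKM in wildtype and 34.2 to 39.1 FPKM in knockout means. Ctsz and Ctsd, 2 further lysosomal proteases, rose by 1.55 and 1.67 on water, and Cst3, the secreted inhibitor cystatin C, rose by 0.99 under nicotine. Sppl2a, the membrane protease that removes the last stub of Cd74, rose by 0.18 on water (limma adjusted p = 0.00483) and by 0.29 under nicotine (limma adjusted p = 0.000212). Marchf1, the ubiquitin ligase that takes class II off the surface, was not called, with log2 changes of -0.10 and 0.08 (limma adjusted p = 0.175 and 0.35), but limma voom on recovered reads called it lower on water. Marchf1 and Sppl2a were picked out with their values known.

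Of 23 listed genes that control class II transcription, 20 were tested. On water 8 rose, 1 fell and 11 were not called (median log2 change 0.10), and under nicotine 9 rose, 1 fell and 10 were not called (median 0.12). Of all tested genes, 25.5% and 24.6% were called higher and 38% and 35.7% in either direction, with medians of 0.05 and 0.06. Rescaling changed the counts of the list to 7 higher and 3 lower, and to 7 higher and 2 lower. The myeloid factors Irf8 and Spi1 led, with log2 changes of 1.66 and 1.15 on water and 1.53 and 0.95 under nicotine. Ifngr1, a chain of the interferon gamma receptor, rose by 0.59 on water, and its partner Ifngr2 rose by 0.21 under nicotine. Ifng, the ligand, was listed at 0 in all libraries. Of the factors that bind the X and Y boxes, Rfx5 was not called on water (log2 change 0.06, limma adjusted p = 0.557) and rose by 0.28 under nicotine (limma adjusted p = 0.0105). Nfya rose by 0.32 on water, and Nfyb, which binds DNA with it, fell by 0.16 under both drinks. Rfx5 was picked out with its values known.

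**Figure D3:**
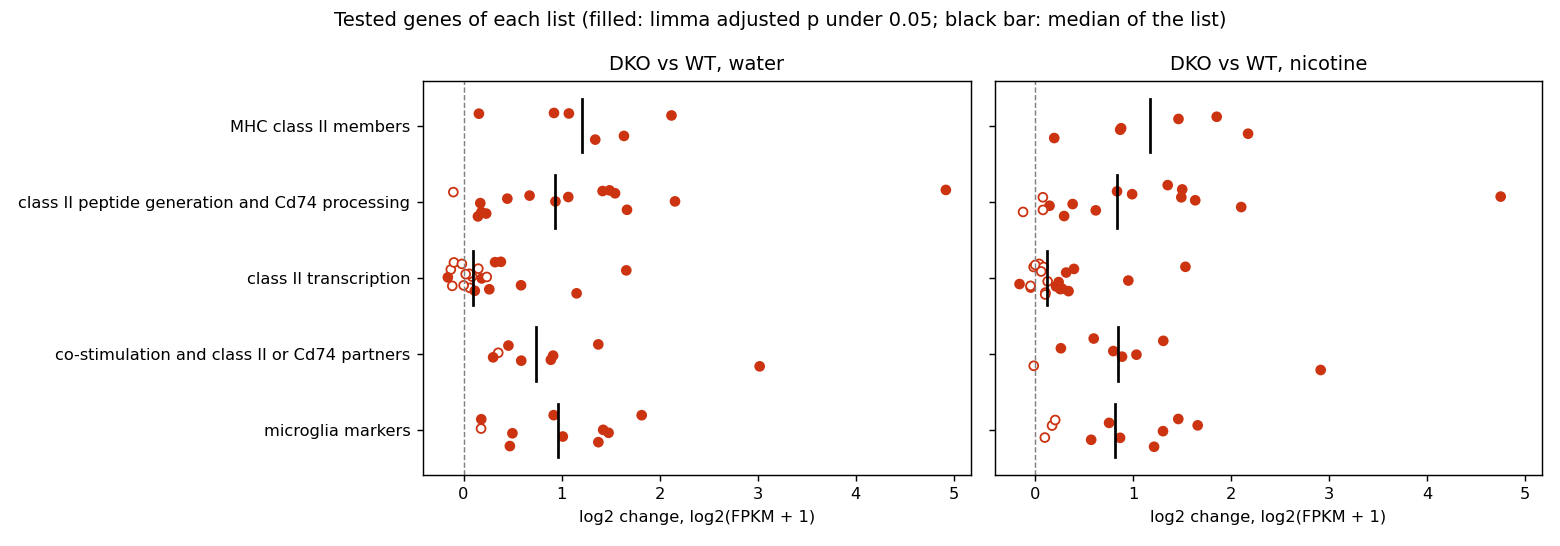
Log2 change on the log2(FPKM + 1) scale of each tested gene (points, filled where called by limma) in the class II members, 3 lists of pathway genes and the microglia markers, with the list's median as a black bar, for both genotype comparisons. The medians on water are 1.21 for the members, 0.94 for peptide generation, 0.10 for transcription, 0.74 for co-stimulation and partners and 0.97 for microglia markers.

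Genes of co-stimulation and the partners of class II or Cd74 rose in 7 of 8 tested cases under both drinks, with 1 not called, and the same counts after rescaling. Among all tested genes, 25.5% were called higher on water and 24.6% under nicotine. The median log2 changes of the list were 0.74 and 0.84. Lag3, a receptor that binds class II, rose by 3.02 on water and 2.91 under nicotine. Cd86, a ligand of the T cell co-receptor CD28, rose by 1.38 and 1.31, and Cd44, which signals with Cd74 at the surface, by 0.89 and 1.03. Icosl, the ligand of the co-stimulatory receptor ICOS, rose by 0.91 on water, and Cd274, the checkpoint ligand PD-L1, by 0.60 under nicotine. Cd4, the T cell receptor partner that reads class II, was not called (limma adjusted p = 0.144 and 0.962). No gene of these 3 lists was called in a nicotine comparison or in the test of the difference between genotypes.

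Markers of cells that can carry class II were measured beside these results. Of all tested genes, 25.5% were called higher on water and 24.6% under nicotine. Of 10 microglia markers 9 rose on water and 7 under nicotine, and 8 and 7 after rescaling. Their median log2 changes were 0.97 and 0.81. Summed levels were 141 to 157 FPKM in WT-B, 141 to 155 in WT-N, 333 to 365 in DKO-B and 305 to 374 in DKO-N. Of 8 border macrophage markers 6 were tested. On water 4 rose, and under nicotine 1 did, Ms4a7, which is not above the share of all tested genes. Rescaling left both counts unchanged. The summed levels of the 8 were 5.42 to 7.45, 5.31 to 7.63, 9.22 to 12.9 and 6.66 to 11.0 FPKM in the same order of groups. Relative to Csf1r, a receptor that microglia and macrophages share, Cd74 was at 0.185 ± 0.0434 (SD, n = 4) in WT-B, 0.176 ± 0.0451 (SD, n = 4) in WT-N, 0.491 ± 0.0524 (SD, n = 4) in DKO-B and 0.51 ± 0.108 (SD, n = 3) in DKO-N. The knockout ratios, from 0.387 up, all lay above the wildtype ones, which reached 0.244.

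Of 8 dendritic cell markers, 3 were tested and none rose, 1 fell on water, and the summed levels were 5.44 to 6.97 in WT-B, 6.23 to 7.19 in WT-N, 4.71 to 5.28 in DKO-B and 6.08 to 6.43 in DKO-N. Xcr1 was at 0 in all DKO-N libraries and Clec9a in all WT-N libraries. Of 7 B cell markers in the tables none was tested, and no single value passed 0.519 FPKM. Ms4a1 was at 0 in all DKO-B libraries, and Blk in every library outside WT-N. The 7 T cell markers in the tables were low as well and none was tested. Their sum was 0.061 to 0.278 FPKM in WT-B, 0.0917 to 0.351 in WT-N, 0.735 to 1.42 in DKO-B and 0.409 to 1.38 in DKO-N. The sums did not overlap between genotypes, but WT-N replicate 3 and DKO-N replicate 2 came close, at 0.351 and 0.409. Of all tested genes, taken singly, 24% on water and 25.8% under nicotine were higher in the knockout without overlap. Cd3g was at 0 in all WT-B libraries, and Cd8b1 in all wildtype libraries of both drinks. Meningeal fibroblast markers rose in 5 of 7 cases on water and 4 of 7 under nicotine, beside 25.5% and 24.6% of all tested genes. Their sums were 33.2 to 39.2, 26.3 to 35.3, 46.1 to 62.0 and 30.7 to 54.9 FPKM in WT-B, WT-N, DKO-B and DKO-N. Of 8 monocyte and neutrophil markers 3 were tested, 1 rose on water and none under nicotine, and the sums were 12.1 to 16.5 FPKM in wildtype and 18.7 to 23.1 in knockout libraries. Fn1, the gene that rose, made up most of these sums, with means of 10.5 FPKM in WT-B, 11.1 in WT-N, 15.3 in DKO-B and 14.1 in DKO-N. S100a8 and S100a9, the other tested markers, were not called in either genotype comparison. In WT-B, WT-N, DKO-B and DKO-N the means were 1.34, 1.71, 2.67 and 1.92 FPKM for S100a8. For S100a9 they were 1.13, 2.22, 2.42 and 3.18. The means of Ccr2, Ly6c2, Plac8, Chil3 and Ly6g were at most 0.245 FPKM in every group. The part of any of these cell types in the class II values was not tested.

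**Figure D4:**
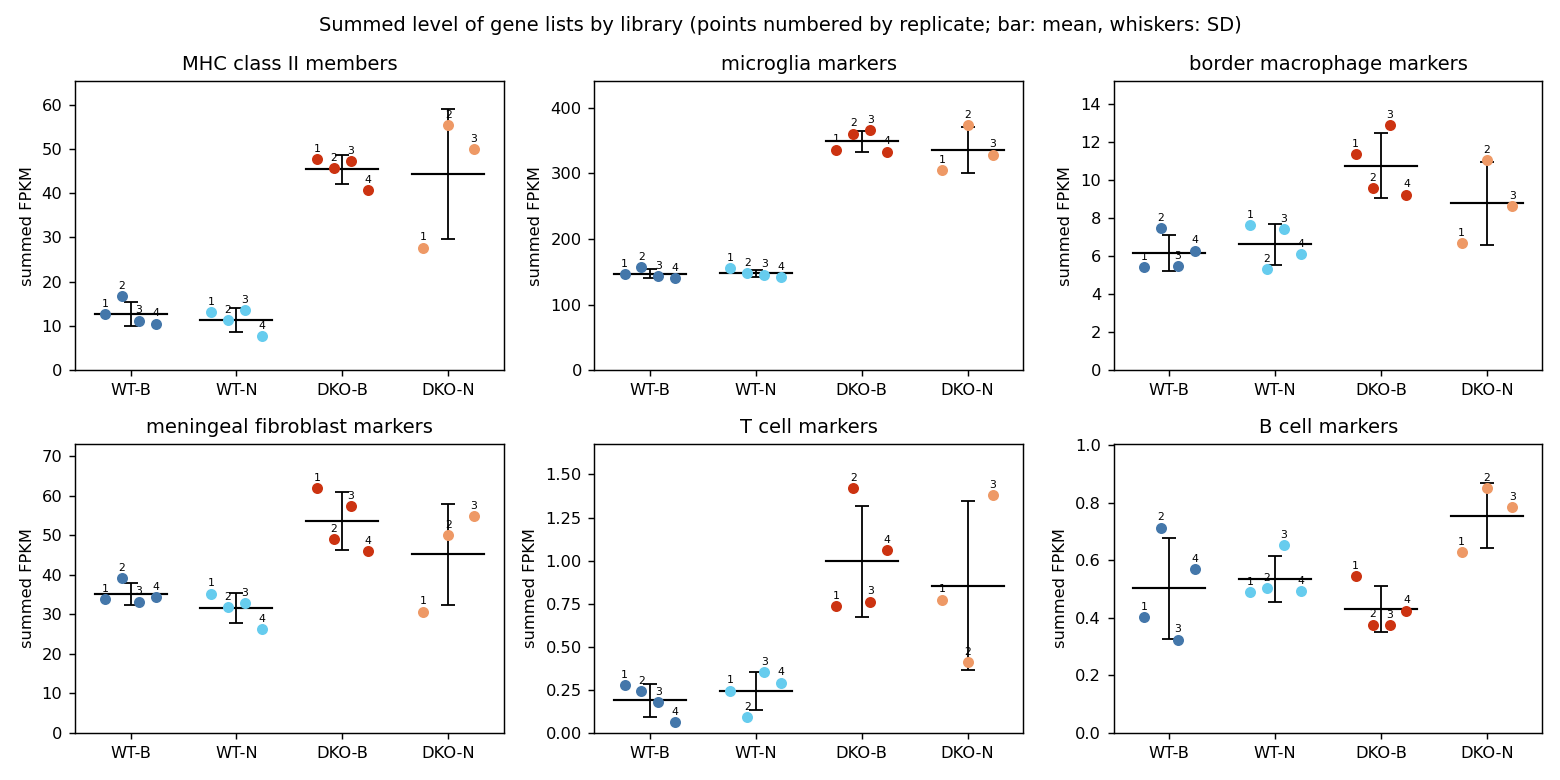
Summed FPKM per library (points numbered by replicate) of the 7 class II members and of marker lists for microglia, border macrophages, meningeal fibroblasts, T cells and B cells, with the mean as a bar and the SD as whiskers, on linear axes. The class II sum is 10.5 to 16.7 in WT-B and 40.7 to 47.8 in DKO-B, and DKO-N replicate 1 is at 27.7 and is the lowest of its group for class II, microglia, border macrophage and meningeal fibroblast genes.

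The class II sum moved with single libraries within groups too. In WT-B, replicate 2 was highest for 5 of the 6 tested members and for 28% of all tested genes, for 7 of 10 microglia markers, for 5 of 6 border macrophage markers and for 5 of 7 meningeal fibroblast markers. In WT-N, replicate 4 was lowest for 5 of the 6 members and for 31.7% of all tested genes. It was lowest for 6 of 7 meningeal fibroblast markers, 4 of 10 microglia markers and 2 of 6 border macrophage markers. In the pathway lists it was lowest for 11 of 15 genes of peptide generation, 6 of 20 of transcription and 6 of 8 of co-stimulation and partners. These shares describe the libraries and carry no test.

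The genes whose level over the 15 libraries was nearest to a member's were found by the root mean square difference of log2(FPKM + 1), each gene centred on its own mean. Nearest to Cd74 were Ctss (0.235), Ly86 (0.243), a partner of a Toll-like receptor homologue, and the Fc receptor Fcgr2b (0.254). Nearest to H2-Aa were the phosphatase Ptpn6 (0.296), Olfml3 (0.318) and Fcgr2b (0.323). Nearest to H2-Ab1 were Adgre1, the macrophage antigen F4/80 (0.175), the protease Ctsh (0.186) and Unc93b1, a carrier of Toll-like receptors (0.193). Nearest to H2-Eb1 were Csf1r (0.198), Car13 (0.198) and Bche (0.203). Among the members, Cd74 and H2-Aa were nearest to each other (0.28) and Cd74 and H2-DMa farthest apart (1.04). The measure takes in the size of a change as well as its pattern, so a gene with a smaller change stands apart even where its libraries have the same order.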

How the data were processed

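The authors deposited 1 table of FPKM values per library. Per the labels' protocols, RNA came from TRIzol extraction and went into a stranded TruSeq mRNA kit. The submitters' processing notes name build GRCm38.p6. The aligner, the counter and any use of strand were not given in the sources used here. The values of tested genes were whole multiples of 1 read (100% within 0.02 reads), which gave the reads per library, and for the median gene 1 FPKM was worth 65.3 reads.

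The members, gene lists and tests were chosen with earlier results of these data known. Limma 3.58.1 in R 4.3.3 was fitted with an intensity trend to log2(FPKM + 1) of all 15 libraries, with 4 group terms and without a block. The plan named a count model in case the files held counts, and they did not. Named genes were all members, Psen2, all relatives, up to 4 called genes with the smallest p per pathway list and genotype comparison, and the 3 nearest profiles per chain. Functions were tested on simulated reads. Alternatives were median-of-ratios rescaling, no filter, a replicate block, only the groups compared, a pseudocount of 0.1, limma voom on recovered reads and leaving out each library. Tables and plots used Python 3.11.15, pandas 2.3.3 and matplotlib 3.10.9.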

Additional observations from a re-analysis of the deposited data

Results flagged for a closer look

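H2-Eb2, a class II beta chain gene beside H2-Eb1, was at 0.0 FPKM in DKO-B replicate 1 and at 0.0132 to 0.0151 FPKM in the other DKO-B libraries. The lowest library stood apart from the rest of its group by a gap test. For continuous values chance meets this in about 1 in 20 groups, but that rate does not hold for values made of so few reads. H2-Eb2 was also at 0 in all WT-B and DKO-N libraries, so these values lie at the limit of detection.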

How the results depend on the processing

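The calls of Cd74, H2-Aa, H2-Ab1, H2-Eb1 and H2-DMb1 in both genotype comparisons, and the absence of calls for all 6 tested members in the other 3, held under every alternative run. H2-DMa lost its call on water under 5 alternatives other than leaving out a library, at limma adjusted p from 0.0526 (no filter) to 0.131 (median-of-ratios rescaling), and without WT-B replicate 2, 3 or 4 or DKO-B replicate 1, 2 or 3 (0.0666 to 0.127). Under nicotine it lost its call under 4 of them (0.0501 to 0.0922) and without WT-N replicate 1, 3 or 4 or DKO-N replicate 1 or 3 (0.0572 to 0.111), so 5 of 6 members were then called. For Ciita, leaving out a library gave a difference between genotypes under nicotine of 0.0322 to 0.0745 FPKM, with p of 0.0667 to 0.1, the smallest that the designs left allow. For nicotine in wildtype mice the Ciita difference of -0.0254 was -0.0106 to -0.0353 FPKM, and exact permutation p was 0.0286 without WT-B replicate 3.

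Over all tested genes, rescaling moved the share of calls that were higher from 67.2% to 50.9% on water and from 69% to 49.1% under nicotine. The 20 genes called for nicotine in knockout mice became 0 in the fit to only those groups, 56 with limma voom and ranged from 1 (without DKO-B replicate 1 or 3) to 57 (without DKO-N replicate 3) when a library was left out. The 2 calls of the interaction became 1 with no filter or a replicate block, and ranged from 1 to 6 (without DKO-N replicate 2) when a library was left out. The replicate numbers did not pair the libraries (r of -0.214 to 0.165 over 21 same-numbered pairs, 2 of them over 0.1). With the replicate block, 5 of 6 members were called in each genotype comparison, all but H2-DMa (limma adjusted p = 0.0716 and 0.0584), and 4620 and 3980 of all tested genes in place of 4836 and 4538.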
